A study of Mus musculus with 8 samples.

Results

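The aryl hydrocarbon receptor (AhR) and the genes around it were examined in mouse bone marrow-derived macrophages (BMDMs), the macrophages that grow out of bone marrow cells in culture. The 6 genes were chosen by name: Ahr, Arnt, Ahrr, Tiparp, Cyp1b1 and Cyp1a1. All 6 were found in the count table, which lists 54532 genes, and 5 of them were among the 12911 genes with enough counts to be fitted. They were picked with the difference between the genotypes already known for these libraries, so that difference is described below and no p-value is given for it. The number of these genes past each threshold is given once, beside the share of all genes. The question behind the choice was whether a lower level of Ahrr goes along with lower levels of the other genes that AhR induces.

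RNA was sequenced in 4 libraries from wildtype (WT) and 4 from Gsdmd-/- BMDMs. Gsdmd encodes gasdermin D, the protein that forms membrane pores in pyroptosis. All cells were differentiated for 6 days with macrophage colony-stimulating factor (M-CSF, 20 ng/ml). No treatment is given for the sequenced cells, and the study names no added AhR ligand. The study's methods give female C57BL/6J mice aged 6 to 8 weeks as the source of BMDMs, without separate details for Gsdmd-/- mice. WT mice were purchased, whereas Gsdmd-/- mice came from a donated line kept in the study's own facility, so that an effect of the deletion and one of the colony cannot be told apart. Whether each library came from its own mouse is not stated in the labels, and the spread between libraries may therefore be technical in part.

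AhR is a transcription factor of the bHLH-PAS family that is activated by binding small molecules, among them dioxins, plant indoles and products of tryptophan breakdown. Without a ligand it waits in the cytoplasm in a complex with HSP90. With one, it enters the nucleus, pairs with ARNT and binds DNA at xenobiotic response elements, whose core is GCGTG. Cyp1a1 and Cyp1b1, which encode cytochrome P450 enzymes that oxidize many AhR ligands, are classical targets. Ahrr and Tiparp are targets as well, and their products act back on the receptor. The AhR repressor, the product of Ahrr, competes for ARNT, and TIPARP (also called PARP7) is an ADP-ribosyltransferase that dampens AhR signaling. In macrophages, AhR is known as a modulator of inflammatory cytokine production.

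The DNA around the start of the genes is given first, since the genes are grouped by their response to 1 factor that reads this core. RefSeq windows from 250 bases before to 50 bases after the start (build GRCm38.p6) were found for 5 of the 6 genes, all but Ahr. The core GCGTG, searched on both strands, was in all 5 of them and in 32.4% of the 32851 mouse windows in the same table. The longer form TNGCGTG, which contains the core, was in 5.07% of all windows and, among these genes, in that of Ahrr alone. The windows of Ahrr, Cyp1b1 and Cyp1a1 follow, to show the repressor beside the pair of enzymes that served as the classical readout. They are written 5′ to 3′ on the strand of the gene, with each match in capitals, where CACGC is the core on the opposite strand.
Ahrr: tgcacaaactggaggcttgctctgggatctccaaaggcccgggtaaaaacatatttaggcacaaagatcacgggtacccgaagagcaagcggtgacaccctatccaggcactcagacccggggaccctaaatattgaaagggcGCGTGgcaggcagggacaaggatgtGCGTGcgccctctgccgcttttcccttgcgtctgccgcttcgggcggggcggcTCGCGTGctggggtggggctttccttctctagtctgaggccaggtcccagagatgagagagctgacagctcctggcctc
Cyp1b1: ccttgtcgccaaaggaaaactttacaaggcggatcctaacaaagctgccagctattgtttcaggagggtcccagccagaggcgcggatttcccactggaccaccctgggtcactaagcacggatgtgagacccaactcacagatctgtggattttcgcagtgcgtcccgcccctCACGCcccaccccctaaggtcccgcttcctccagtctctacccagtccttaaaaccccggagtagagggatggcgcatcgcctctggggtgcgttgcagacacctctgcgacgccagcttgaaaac
Cyp1a1: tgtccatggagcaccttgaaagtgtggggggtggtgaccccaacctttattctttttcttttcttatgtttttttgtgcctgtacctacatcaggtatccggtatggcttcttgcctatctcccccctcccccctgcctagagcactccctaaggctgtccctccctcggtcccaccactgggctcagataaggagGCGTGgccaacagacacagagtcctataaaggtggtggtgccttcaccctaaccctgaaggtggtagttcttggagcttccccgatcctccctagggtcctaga

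The Ahrr window (chr13:74292282-74292581, minus strand) held 3 cores, which began 107, 82 and 27 bases before the start. The last of them was part of the longer form TCGCGTG. At least 3 cores were found in 3.91% of all windows. The Cyp1b1 window (chr17:79715012-79715311, minus strand) held 1 core, 76 bases before the start, and the Cyp1a1 window (chr9:57697363-57697662, plus strand) held 1 core, 54 bases before it. Arnt and Tiparp had 1 core each, at 29 and 170 bases before the start. A match is a description of these letters and no evidence that the receptor binds there in BMDMs, and the windows are too short to hold distal enhancers.

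Total counts per library ranged from 16210182 to 16659319 in WT and from 14935114 to 16794810 in Gsdmd-/- BMDMs. Levels are given in CPM, the usual unit of counts relative to library size, here after TMM scaling, and 3 counts correspond to between 0.177 and 0.199 CPM. Gsdmd itself was at 75.3 ± 14.1 CPM (n = 4, ± SD) in WT against 16.2 ± 1.56 CPM (n = 4, ± SD) in Gsdmd-/- BMDMs, without overlap (edgeR log2 fold change -2.22, SE 0.139, adjusted p = 4.67e-05, where SE is the standard error). WT 2 and WT 3 stood apart from the other 6 libraries on the first principal component, which held 43.6% of the variance. Values without both of them are therefore given for Ahrr, Ahr and Cyp1b1 and for the other named genes whose call by edgeR changed. They are also given for Cyp1a1, Slc7a5 and Aldh3a1. Of the 8 macrophage markers, all were detected and summed to between 15340 and 23464 CPM in WT and between 19408 and 23404 CPM in Gsdmd-/- BMDMs. Most of this sum was the lysozyme gene Lyz2, with between 12999 and 20757 CPM in any library. Adgre1, which encodes the macrophage marker F4/80, was at 303.4 ± 23.3 CPM in WT against 257.6 ± 13.8 CPM in Gsdmd-/- BMDMs (n = 4 each, ± SD), without overlap (log2 fold change -0.24, edgeR adjusted p = 0.31). In any library, lymphoid markers summed to at most 0.487 CPM, mast cell markers to at most 1.64 CPM, stromal markers to at most 2.92 CPM, neutrophil markers to at most 6.68 CPM and epithelial markers to at most 23.9 CPM. The endothelial list reached 267 CPM, in WT 2, where Vwf made up 237.8 CPM of it. Of the 18 tested markers, 2 were lower in Gsdmd-/- BMDMs at the cutoff that the study used for its volcano plot (a log2 fold change of 0.5 or more in size with an unadjusted p under 0.05), where 3.28% of all genes tested were called lower. They were Clec9a of the dendritic list and Cdh5 of the endothelial list, the latter at 5.18 ± 1.00 and 3.66 ± 0.900 CPM (n = 4 each, ± SD, log2 fold change -0.51, edgeR adjusted p = 0.402). Neither was called without WT 2 and WT 3 (-0.06 and -0.38). Of the 3 tested endothelial markers, only Kdr was higher in Gsdmd-/- BMDMs (log2 fold change 0.62, edgeR adjusted p = 0.535). Its means were 41.3 ± 22.3 CPM in WT against 63.5 ± 15.9 CPM in Gsdmd-/- BMDMs (n = 4 each, ± SD). The part of these markers and of Adgre1 in the levels of the 6 genes was not tested.

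Among the 6 genes, Ahrr was the one whose WT and Gsdmd-/- libraries did not overlap. Ahr and Cyp1b1 had lower means in Gsdmd-/- BMDMs with overlapping libraries, Arnt and Tiparp overlapped with log2 fold changes of -0.02 and -0.13, and Cyp1a1 was low, with at most 29 counts in a library and fewer than 3 in 4 of the 8. At the same cutoff of the study, 3 of the 5 fitted genes were called (Ahrr, Ahr and Cyp1b1), all lower in Gsdmd-/- BMDMs, where 3.28% of all genes tested were called lower, 1.54% higher and 4.83% in either direction. At an adjusted p under 0.05, 1 of the 5 was called, Ahrr, against 0.209% of all genes called lower, 0.139% higher and 0.349% in either direction. Groups did not overlap for 1 of the 5, and for 7.6% of all genes tested. Ahr was not among the genes called without WT 1 or without WT 4, and Cyp1b1 was not without both WT 2 and WT 3. The adjusted p threshold was also passed by Ahr without WT 2 and WT 3, where 1.21% of 13288 genes passed it, and by Cyp1b1 with no filter on low counts (log2 fold change -1.29). Because the genes were chosen by this contrast, nothing is read from these counts.

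**Figure D1:**
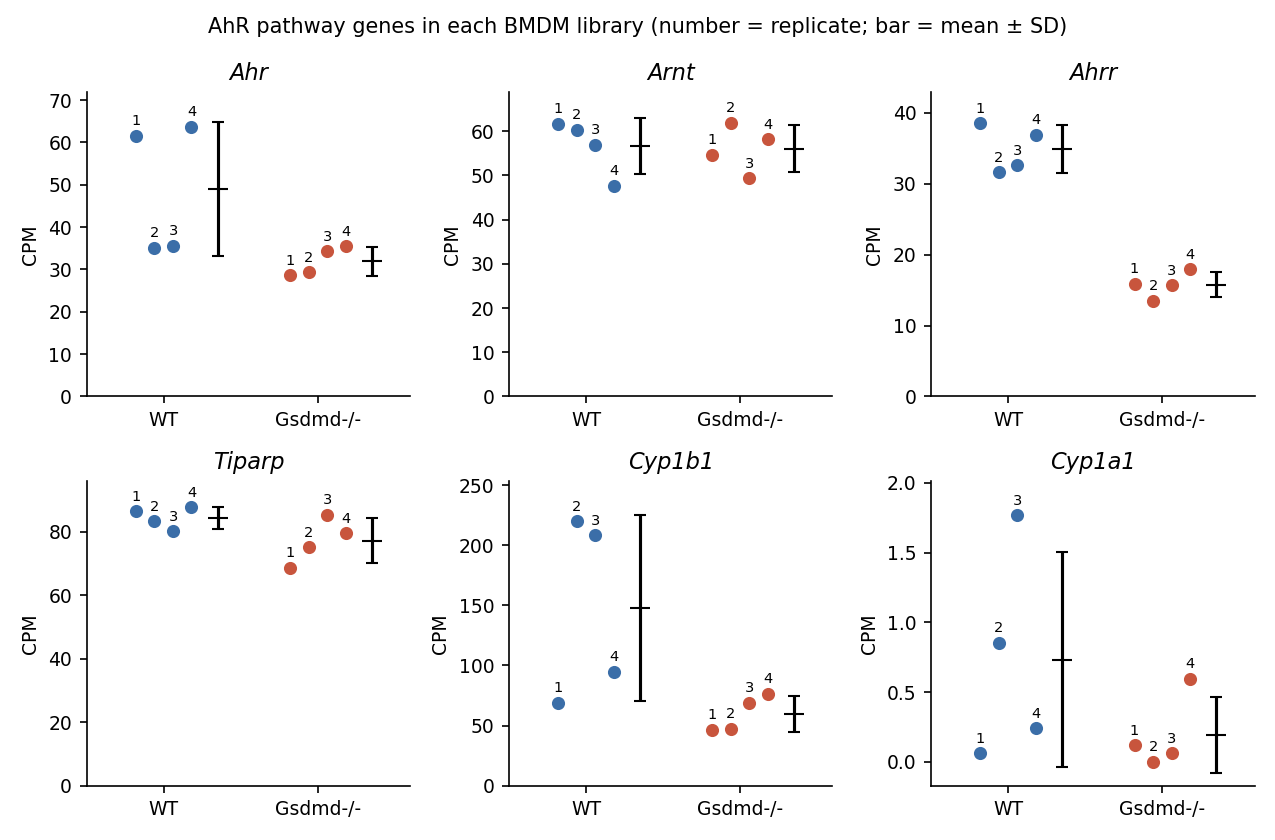
CPM of the 6 genes (y axis, each panel with its own scale) in the 4 WT and 4 Gsdmd-/- libraries. Each point is a library with its replicate number, and the bars are the mean ± SD. The Ahrr points of Gsdmd-/- BMDMs (13.5 to 17.9 CPM) all lie below those of WT (31.6 to 38.5 CPM), whereas WT 2 and WT 3 are the lowest WT points for Ahr and the highest for Cyp1b1 and Cyp1a1.

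Ahrr (ENSMUSG00000021575, chr13:74211118-74292331, minus strand, GRCm38) encodes the AhR repressor, a bHLH-PAS protein that lacks the ligand-binding domain of the receptor. Its counts were 632, 517, 534 and 606 in WT 1 to 4 and 268, 229, 248 and 270 in Gsdmd-/- 1 to 4. In CPM these were 38.5, 31.6, 32.6 and 36.9 in WT and 15.9, 13.5, 15.7 and 17.9 in Gsdmd-/- BMDMs. Every Gsdmd-/- library was thus lower than every WT library, and the lowest WT value was 1.76 times the highest Gsdmd-/- value. The means were 34.9 ± 3.31 CPM and 15.8 ± 1.78 CPM (n = 4 each, ± SD). The log2 fold change was -1.15 (SE 0.113), which is a level 54.8% lower in Gsdmd-/- BMDMs. It stayed between -1.26 and -1.08 over 17 alternatives of tool, scaling, filter, block and libraries. Without WT 2 and WT 3 the value was -1.26.

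Ahr (ENSMUSG00000019256, chr12:35497974-35535038, minus strand) encodes the receptor. Its CPM were 61.6, 35.1, 35.6 and 63.7 in WT 1 to 4 and 28.7, 29.3, 34.3 and 35.5 in Gsdmd-/- 1 to 4. The WT libraries fell into a high pair, WT 1 and WT 4, and a low pair, WT 2 and WT 3, and the low pair reached into the Gsdmd-/- range, since Gsdmd-/- 4 was above WT 2. The means were 49.0 ± 15.8 CPM and 32.0 ± 3.45 CPM (n = 4 each, ± SD), and their log2 fold change was -0.62 (SE 0.204). The size of this value depended on the high pair, as it was -0.49 without WT 1 and -0.46 without WT 4. With WT 2 and WT 3 left out the log2 fold change was -0.97.

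Arnt (ENSMUSG00000015522, chr3:95434388-95497240, plus strand) encodes the partner that AhR and the AhR repressor share. Its CPM were 61.7, 60.4, 57.0 and 47.7 in WT 1 to 4 and 54.7, 61.9, 49.4 and 58.2 in Gsdmd-/- 1 to 4. The groups were intermixed, with the highest value in Gsdmd-/- 2 and the lowest in WT 4. The means of 56.7 ± 6.32 CPM and 56.1 ± 5.33 CPM (n = 4 each, ± SD) differed by less than their SD, and the log2 fold change was -0.02 (SE 0.106). The sign of this value held in 12 of 17 alternatives, and the range was from -0.09 to 0.04.

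Tiparp (ENSMUSG00000034640, chr3:65528410-65555518, plus strand), the other feedback gene, was at 86.5, 83.3, 80.1 and 87.7 CPM in WT 1 to 4 and at 68.6, 75.1, 85.3 and 79.5 CPM in Gsdmd-/- 1 to 4. Gsdmd-/- 3 lay within the WT range and the other 3 Gsdmd-/- libraries below it. The means were 84.4 ± 3.41 CPM and 77.1 ± 7.06 CPM (n = 4 each, ± SD), and the log2 fold change was -0.13 (SE 0.0858). Over the 17 alternatives it ran from -0.18 to -0.08. The gene 4931440P22Rik overlaps Tiparp on the opposite strand and was counted 397 times in WT and 414 times in Gsdmd-/- BMDMs. They share 970 bases. As the sources used here do not state whether counting used the strand, reads within these bases cannot be told apart, and the 5539 and 4972 counts of Tiparp were far above those of the other gene. The other overlapping genes, Gm48236 at Ahr and Gm42672 at Arnt, had at most 6 counts per genotype.

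Cyp1b1 (ENSMUSG00000024087, chr17:79701537-79715061, minus strand) was the member with the widest spread among those fitted. Its counts were 1136, 3603, 3412 and 1555 in WT 1 to 4 and 788, 802, 1087 and 1152 in Gsdmd-/- 1 to 4. In CPM these were 69.1, 220.1, 208.4 and 94.6 in WT and 46.7, 47.4, 68.9 and 76.4 in Gsdmd-/- BMDMs. WT 2 and WT 3 were far above the rest, and WT 1 was below Gsdmd-/- 4, so the groups overlapped. The means were 148 ± 77.3 CPM and 59.9 ± 15.1 CPM (n = 4 each, ± SD), and the log2 fold change was -1.31 (SE 0.352). This value was larger in size than that of Ahrr, but its standard error was larger as well. Without WT 2 and WT 3 the log2 fold change was -0.45.

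Cyp1a1 (ENSMUSG00000032315, chr9:57687928-57703824, plus strand), the textbook readout of AhR activation, had 1, 14, 29 and 4 counts in WT 1 to 4 and 2, 0, 1 and 9 counts in Gsdmd-/- 1 to 4. It was too low to be fitted. WT 2 and WT 3 were the highest libraries, as for Cyp1b1, with 0.855 and 1.77 CPM. Between 0.0609 and 0.243 CPM were found in WT 1 and WT 4, and at most 0.597 CPM in any Gsdmd-/- library. The sums were 48 counts in WT and 12 in Gsdmd-/- BMDMs, a ratio of 0.255 per total counts. This ratio treats the libraries of a genotype as 1 pool, and 43 of the 48 WT counts came from WT 2 and WT 3. The direction turned with both left out. The mean was then 0.195 CPM in Gsdmd-/- BMDMs against 0.152 CPM in WT 1 and WT 4, a ratio of 1.28. As Cyp1a1 was chosen with this contrast known and had few counts, nothing is read from either ratio.

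**Figure D2:**
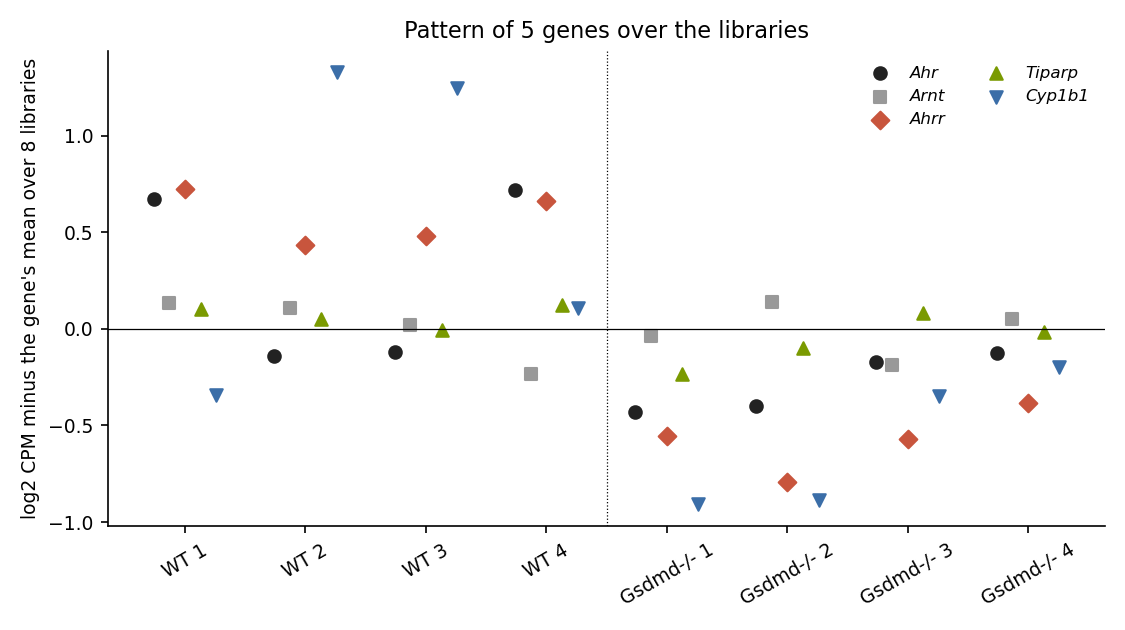
log2 CPM of the 5 fitted genes in each library (x axis), as the difference from the mean of the gene over the 8 libraries (y axis). Ahrr (diamonds) is above its mean in all WT and below it in all Gsdmd-/- libraries, Ahr (circles) is high in WT 1 and WT 4, and Cyp1b1 (downward triangles) is high in WT 2 and WT 3.

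Among the WT libraries the genes split into sets. Ahr, Ahrr and Tiparp were lower in both WT 2 and WT 3 than in WT 1 and WT 4, with ratios of the pair means of 0.565, 0.852 and 0.938. Cyp1b1 and Cyp1a1 were higher in both, with ratios of 2.62 and 8.63, the latter from few counts. Arnt was mixed. WT 2 and WT 3 were the highest pair in 17.9% of all genes tested. Bulk RNA cannot tell fewer cells of a type from less RNA per cell, and a marker of dendritic cells, Clec9a, showed the pattern of Cyp1b1, with 17.0, 49.1, 45.3 and 17.6 CPM in WT 1 to 4 and between 14.5 and 18.3 CPM in Gsdmd-/- BMDMs (log2 fold change -0.95, edgeR adjusted p = 0.304). Zbtb46, another dendritic cell marker, did not show it, with 2.25, 2.69, 2.26 and 3.10 CPM in WT 1 to 4. Of the 18 tested markers of all cell types, 5 were higher in WT 2 and WT 3 than in WT 1 and WT 4, 9 were lower and 4 were mixed. Among the higher ones was Mertk, a phagocytic receptor of macrophages, with 249.6 and 212.0 CPM in WT 2 and WT 3 against 141.0 and 101.3 CPM in WT 1 and WT 4. The lower ones included 6 of the 8 macrophage markers, among them the Fc receptor gene Fcgr1, with 7.09 and 6.66 CPM in WT 2 and WT 3 against 36.2 and 40.7 CPM in WT 1 and WT 4. Without WT 2 and WT 3 Fcgr1 was called lower in Gsdmd-/- BMDMs (log2 fold change -0.85, edgeR adjusted p = 0.032), as it was not with all libraries (-0.08). Adgre1, Lyz2, Clec9a, Cdh5, Kdr, Zbtb46, Mertk, Fcgr1 and Vwf were named after their values were seen. All 7 dendritic markers had a count, and they summed to between 2228 and 2372 CPM in WT and between 1674 and 2098 CPM in Gsdmd-/- BMDMs, without overlap. Most of this sum was Itgax, which macrophages also express, at 2273 ± 70.2 and 1917 ± 189 CPM (n = 4 each, ± SD, edgeR adjusted p = 0.337). The defining markers Flt3, Xcr1, Dpp4 and Ccr7 were low, with 0 counts of Flt3 in any WT library and at most 1.22 CPM of the others in any library. The part of dendritic cells, or of the other differences in markers between the pairs of WT libraries, in the levels of Ahrr, Ahr and Cyp1b1 was not tested.

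**Figure D3:**
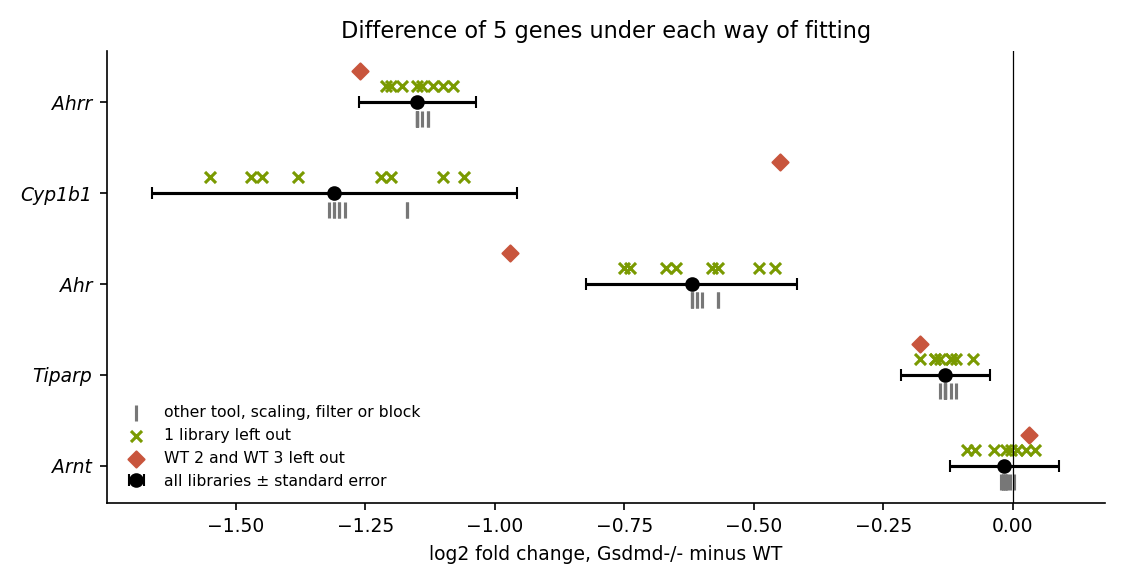
log2 fold change of the 5 fitted genes (x axis, Gsdmd-/- minus WT) with all libraries (black, ± standard error), with another tool, scaling, filter or block (ticks), with 1 library left out (crosses) and without WT 2 and WT 3 (diamonds). The Ahrr values lie between -1.26 and -1.08, whereas leaving out WT 2 and WT 3 moves Ahr to -0.97 and Cyp1b1 to -0.45.

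Levels of different genes were compared per kilobase of exon. In WT BMDMs the order was Cyp1b1 with 25.4 ± 13.2, Tiparp with 19.4 ± 0.782, Ahr with 7.95 ± 2.56, Arnt with 7.08 ± 0.79, Ahrr with 3.7 ± 0.35 and Cyp1a1 with 0.263 ± 0.277 CPM per kilobase (n = 4 each, ± SD). Cyp1b1 and Tiparp did not differ beyond their spread, and neither did Ahr and Arnt. In Gsdmd-/- BMDMs the order was Tiparp with 17.7 ± 1.62, Cyp1b1 with 10.3 ± 2.59, Arnt with 7.0 ± 0.665, Ahr with 5.18 ± 0.56, Ahrr with 1.67 ± 0.189 and Cyp1a1 with 0.0699 ± 0.0978 CPM per kilobase (n = 4 each, ± SD). Per kilobase, Ahrr RNA was therefore below Ahr RNA in both genotypes. The length used covers all annotated exons of a gene, and which transcripts were expressed was not examined. Per kilobase, the ratio of Ahrr to Ahr was 0.408, 0.587, 0.598 and 0.378 in WT 1 to 4 and 0.361, 0.301, 0.299 and 0.329 in Gsdmd-/- 1 to 4. The ratio was lower in every Gsdmd-/- library than in every WT library, with a narrow gap between WT 4 and Gsdmd-/- 1. The ratio of Cyp1b1 to Ahr overlapped, with 1.18, 6.61, 6.18 and 1.57 in WT 1 to 4 and between 1.71 and 2.27 in Gsdmd-/- BMDMs. Arnt was above Ahr in all 4 Gsdmd-/- libraries, with ratios between 1.11 and 1.62, and in 2 of 4 WT libraries, with ratios between 0.576 and 1.32, so these ratios overlapped too.

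To see how the wider pathway behaved, 98 genes that are not among the 6 were listed in 7 groups, of which 71 were tested. None had an adjusted p under 0.05 in the edgeR quasi-likelihood test or with limma voom, while DESeq2 called 2 genes, Hdac5 and Parp14, or 2.82% of those tested against 2.26% of all genes in the DESeq2 fit. At an unadjusted p under 0.05 there were 14 genes, 3 higher and 11 lower in Gsdmd-/- BMDMs, or 19.7% of those tested, where 12.0% of all genes passed. At the cutoff of the study 2 were lower and 0 higher, or 2.82% against 4.83% of all genes. This count depended on the libraries, and the share lay below that of all genes in some fits and above it in others. It was 6 (8.45% against 6.72% of all genes) without WT 1 and 1 (1.41% against 7.79%) without WT 4. Without Gsdmd-/- 1, 2 or 4 it was 1, 4 and 5 (1.39%, 5.56% and 6.94% against 3.92%, 4.18% and 4.47%). Without both WT 2 and WT 3 it was 10 of 73, 1 higher and 9 lower (13.7% against 6.19%). Log2 fold changes were above 0 for 19 and below 0 for 52 of the listed genes, with a median of -0.12, while the median of all genes tested was -0.01 and 51.5% of them were below 0. The lists differed, with 13 of 16 coregulators and 12 of 13 PARP relatives below 0 but 3 of 9 xenobiotic enzymes. They were written with earlier results of these libraries known, so nothing is read from these directions. The median of the listed genes was below 0 in all 17 alternatives, between -0.14 and -0.09, and the share below 0 was 64.4% without WT 2 and WT 3 against 73.2% with them. Groups did not overlap for 6 listed genes, 8.45% against 7.6% of all genes.

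The 2 genes at the cutoff are both counted as AhR targets. Nqo1, a quinone reductase of the xenobiotic response that NRF2 also induces, was at 47.8, 77.8, 90.6 and 78.0 CPM in WT 1 to 4 and at 39.5, 38.5, 67.4 and 60.6 CPM in Gsdmd-/- 1 to 4. The groups overlapped, as WT 1 was below Gsdmd-/- 3 and Gsdmd-/- 4, and the log2 fold change was -0.51 (SE 0.227, edgeR adjusted p = 0.401). It stayed at the cutoff in 9 of 17 alternatives, with values from -0.67 to -0.29, and was lost without any 1 of WT 2, WT 3, WT 4, Gsdmd-/- 1 or Gsdmd-/- 2, without both WT 2 and WT 3 (-0.29), with upper-quartile scaling and with no filter. Gpr15, which encodes a homing receptor of T cells, was low, with 3.29 ± 0.852 CPM in WT against 2.15 ± 0.173 CPM in Gsdmd-/- BMDMs (n = 4 each, ± SD). Its log2 fold change was -0.61 (SE 0.229, edgeR adjusted p = 0.333), and it stayed at the cutoff in 13 of 17 alternatives, with values from -0.76 to -0.50, and was lost without WT 3, WT 4 or Gsdmd-/- 1 and without both WT 2 and WT 3 (-0.50).

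Of the xenobiotic enzymes, 9 of 13 were tested, with 6 above and 3 below 0 and a median of 0.10. Por, the reductase that passes electrons to cytochrome P450 enzymes, was at 132 ± 8.11 CPM in WT against 155 ± 4.4 CPM in Gsdmd-/- BMDMs (n = 4 each, ± SD), without overlap (log2 fold change 0.23, edgeR adjusted p = 0.274). Gstm1, a glutathione transferase, had a log2 fold change of 0.21 (edgeR adjusted p = 0.471). Aldh3a1, an aldehyde dehydrogenase that was named after its values were seen, had 0.183, 2.38, 1.77 and 0.669 CPM in WT 1 to 4 and between 0 and 0.825 CPM in Gsdmd-/- BMDMs. Like Cyp1b1 and Cyp1a1, it was highest in WT 2 and WT 3 (log2 fold change -1.60 with SE 0.843, edgeR adjusted p = 0.50). With both left out the log2 fold change of Aldh3a1 was -0.07. Cyp1a2 had no count in any library.

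Of 20 AhR targets described in immune cells, 8 were tested, with 3 above and 5 below 0 and a median of -0.09. Entpd1, the ectonucleotidase CD39, had a log2 fold change of 0.04 (edgeR adjusted p = 0.942). The cytokine genes Il10, Il22 and Il24 and the growth factor genes Ereg and Epgn had no count in any library, so no change in them could be seen at this depth.

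Of the 16 enzymes and transporters of tryptophan, through which cells take up or make AhR ligands, 7 were tested, 1 above and 6 below 0, with a median of -0.17. Ido1, which starts the kynurenine pathway, summed to 12 counts over WT and 23 over Gsdmd-/- libraries, and Il4i1, which oxidizes tryptophan, had 2 and 6. The transporter subunits Slc7a5 and Slc3a2 had log2 fold changes of 0.28 and -0.09 (edgeR adjusted p = 0.775 and 0.764). Slc7a5 split the WT libraries as Ahr did, with 41.9 and 38.2 CPM in WT 1 and WT 4 and 17.2 and 13.3 CPM in WT 2 and WT 3. The sign for Slc7a5 turned without WT 2 and WT 3 (log2 fold change -0.26, edgeR adjusted p = 0.343). Kmo, kynurenine monooxygenase, was named after its values were seen and had 2.86, 0.794, 0.611 and 2.37 CPM in WT 1 to 4 and between 0.444 and 0.929 CPM in Gsdmd-/- BMDMs (log2 fold change -1.12, edgeR adjusted p = 0.415). It too was high in WT 1 and WT 4, and it was the listed gene called at an adjusted p under 0.05 once WT 2 and WT 3 were left out (log2 fold change -1.78, edgeR adjusted p = 0.0389).

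The machinery that holds and turns over the receptor showed small differences. All 7 genes of the chaperone list were tested, 3 above and 4 below 0, with a median of -0.01 and 0 at an unadjusted p under 0.05. Hsp90aa1 and Hsp90ab1, the cytosolic HSP90 genes, had log2 fold changes of 0.10 and -0.13 (edgeR adjusted p = 0.713 and 0.647). Of 16 bHLH-PAS relatives, 12 were tested, 3 above and 9 below 0. Hif1a, the oxygen-regulated factor that also pairs with ARNT, had a log2 fold change of 0.24 (edgeR adjusted p = 0.457), and Clock, a circadian factor, one of -0.01 (edgeR adjusted p = 0.992).

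All 16 coregulators were tested, with 3 above and 13 below 0, a median of -0.21 and 6 at an unadjusted p under 0.05, or 37.5% against 12.0% of all genes. As the list was written with earlier results of these libraries known, nothing particular to it is read from this share. Nfe2l2, which encodes NRF2, was at 355 ± 29.2 CPM in WT against 291 ± 31.3 CPM in Gsdmd-/- BMDMs (n = 4 each, ± SD, log2 fold change -0.29, edgeR adjusted p = 0.302). Klf6, a partner of AhR, was at 309 ± 63.6 and 397 ± 9.89 CPM (n = 4 each, ± SD, log2 fold change 0.36, edgeR adjusted p = 0.321). Hdac4 and Hdac5, deacetylases that the AhR repressor can recruit, had log2 fold changes of -0.36 and -0.23 without overlap (edgeR adjusted p = 0.212 and 0.221), and were named after their values were seen. Of the 13 PARP relatives of Tiparp, all tested, 1 was above and 12 were below 0, with a median of -0.08. Parp14, a mono-ADP-ribosyltransferase like TIPARP, was at 87.2 ± 8.76 and 62.0 ± 7.82 CPM (n = 4 each, ± SD) without overlap (log2 fold change -0.49 with SE 0.112, edgeR adjusted p = 0.115, DESeq2 adjusted p = 0.0102). It just missed the cutoff of the study by size, and was called there in 7 of 17 alternatives, among them the one without WT 2 and WT 3 (-0.57). Zc3hav1, an antiviral zinc finger protein of the same family, had a log2 fold change of -0.01 (edgeR adjusted p = 0.985).

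**Figure D4:**
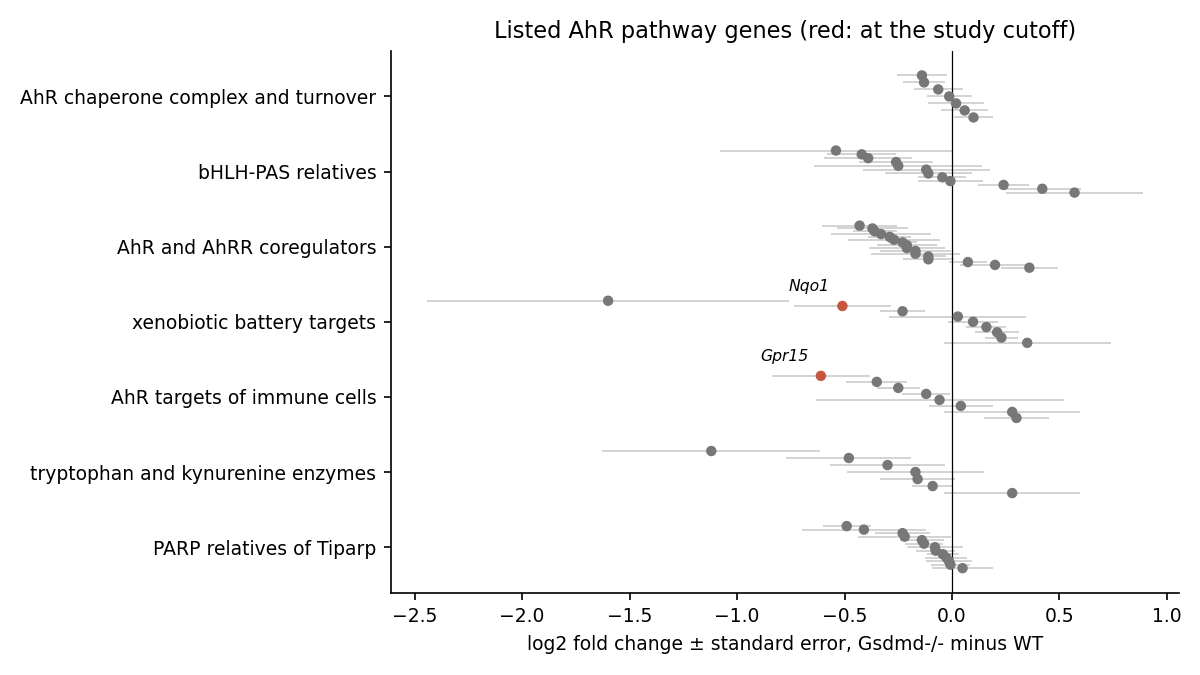
log2 fold change ± standard error (x axis, Gsdmd-/- minus WT) of the 71 tested genes in 7 lists (rows). Points of a list are sorted by value, genes that are in more than 1 list appear in each, and the 2 genes at the cutoff of the study, Nqo1 and Gpr15, are red.

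The genes whose levels over the 8 libraries were most like those of Ahrr were Gsdmd (Pearson r of log2 CPM 0.983), Sema6d (0.981), Myo1f (0.977), Lrmda (0.976) and Gpr55 (0.972). These coefficients are descriptions over 8 libraries that share the split between genotypes. On deviations from the genotype means, which remove that split, the 5 genes most like Ahrr shared 0 genes with this list, and the coefficient of Gsdmd was 0.574. With Spearman's rho 1 gene was shared, Sema6d. Sema6d, which encodes a semaphorin, was at 16 ± 2.76 CPM in WT against 7.81 ± 0.574 CPM in Gsdmd-/- BMDMs (n = 4 each, ± SD, log2 fold change -1.03, edgeR adjusted p = 0.0165). Myo1f, an unconventional myosin of leukocytes, had a log2 fold change of -0.30 (edgeR adjusted p = 0.158), and Gpr55, a lipid receptor, was at 0.960 ± 0.134 and 0.343 ± 0.0544 CPM (n = 4 each, ± SD, edgeR adjusted p = 0.0861). Lrmda had the largest difference of the 5, with a log2 fold change of -3.59.

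Position was a property that the choice of genes did not use. Within 500 kb of the 6 genes, 86 other genes were tested, of which 0 had an adjusted p under 0.05 in the edgeR test, 14 had an unadjusted p under 0.05 (16.3% against 12.0% of all genes) and 3 by DESeq2 had an adjusted p under 0.05 (Ccnl1, Ctsk and Mcl1, 3.49% against 2.26%). At the cutoff of the study 3 were called, 3.49% against 4.83% of all genes. Around Ahrr, 16 genes were tested, and their median was -0.02 on the log2 scale. The nearest were Exoc3, an exocyst subunit 2386 bases away (log2 fold change -0.04, edgeR adjusted p = 0.888), and Pdcd6, a calcium-binding protein gene 11178 bases away (0.06, edgeR adjusted p = 0.833). With SE of 0.0822 and 0.0964, both values were far from the -1.15 of Ahrr. Gm47469, 261579 bases away, was called at the cutoff of the study from low levels of 1.59 ± 0.432 and 0.854 ± 0.327 CPM (n = 4 each, ± SD, log2 fold change -0.88, edgeR adjusted p = 0.342), and in 11 of 16 alternatives. It was not called without any 1 of WT 2, WT 3, Gsdmd-/- 3 or Gsdmd-/- 4, nor without both WT 2 and WT 3 (-0.50). Beside Arnt lies Ctsk, the gene of the protease cathepsin K, 2016 bases away, with 247 ± 39.6 CPM in WT against 387 ± 63.8 CPM in Gsdmd-/- BMDMs (n = 4 each, ± SD, log2 fold change 0.65 with SE 0.142, edgeR adjusted p = 0.113). It was at the cutoff in 17 of 17 alternatives. Cyp11a1, a steroid-synthesis enzyme 302587 bases from Cyp1a1, was at 3.22 ± 1.18 and 5.26 ± 1.79 CPM (n = 4 each, ± SD, log2 fold change 0.70, edgeR adjusted p = 0.405), and at the cutoff in 11 of 17. Without WT 2, Gsdmd-/- 3 or Gsdmd-/- 4, Ctsk was the 1 neighbour at the cutoff.

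**Figure D5:**
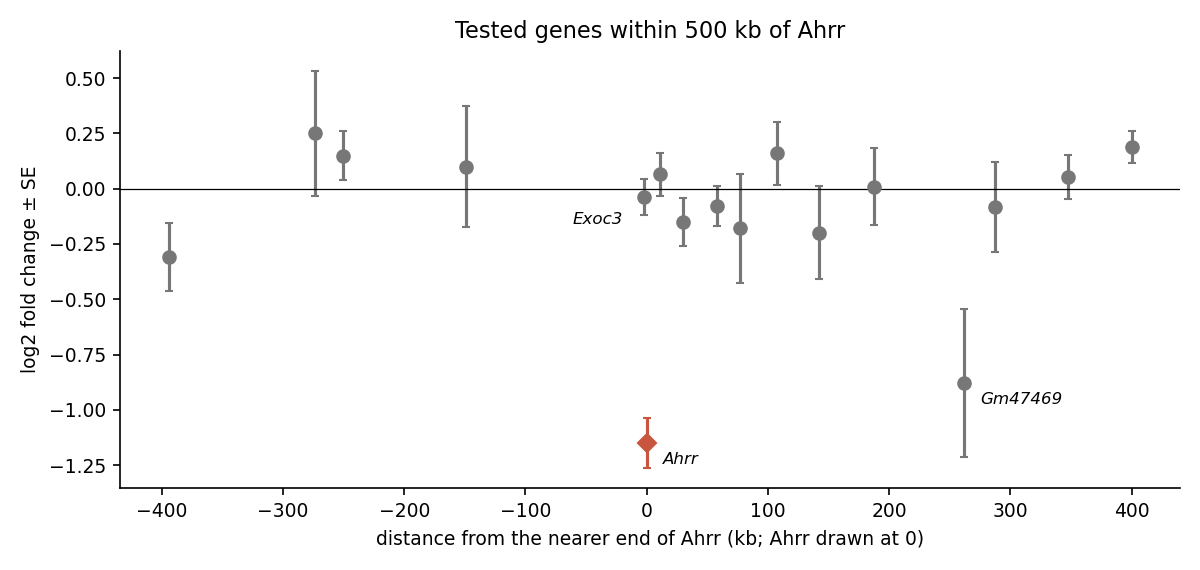
log2 fold change ± standard error (y axis, Gsdmd-/- minus WT) of Ahrr (diamond, drawn at 0) and of the 16 tested genes within 500 kb, against the distance from the nearer end of Ahrr in kb (x axis). Ahrr is at -1.15, Gm47469 at -0.88, and the nearest genes lie near 0.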

How the data were processed

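RNA of WT and Gsdmd-/- BMDMs was sequenced in 4 libraries per genotype. The authors deposited raw read counts per gene, not normalized, in 1 table of 54532 genes, and each column was matched to a sample by its label. The aligner, counting tool and annotation are not given in the sources used here. The submitters' processing notes name the build mm10. Positions and exon lengths were taken from GENCODE M21 (54495 identifiers matched).

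Counts were scaled by TMM, filtered with filterByExpr and compared with the quasi-likelihood test of edgeR 4.0.16 (R 4.3.3), two-sided and without covariates beside genotype, and p-values were adjusted by the Benjamini-Hochberg method over 12911 genes. The scripts were tested on simulated data. CPM use TMM-scaled library sizes, and log2 CPM a prior count of 2. Alternatives were RLE, upper-quartile and total-count scaling, no filter on low counts, a minimum of 10 counts per library, DESeq2 1.42.0, limma voom (3.58.1), a replicate block, each library left out in turn, WT 2 and WT 3 left out together and, for the count of all genes at the study cutoff, a minimum log2 fold change of 1.

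The members and the gene lists were chosen with earlier results of these data known. Genes were named by a rule: the 6 members, Gsdmd, listed genes called at either cutoff, the 2 highest tested genes of each list (1 of which is not reported here), neighbours at the study cutoff and the 5 genes most like Ahrr. Other genes are named as examples or nearest neighbours, after their values were seen. Promoters came from RefSeq (GRCm38.p6).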

Additional observations from a re-analysis of the deposited data

Results flagged for a closer look

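In 58 groups of 4 libraries, both genotypes of 29 named genes, 3 held a library whose distance to the nearest other took up nearly the whole range of the group (Dixon's 95% limit). Chance flags about 1 in 20 groups. None of the 3 was one of the 6 genes described above. Hsp90aa1 was at 284.3 CPM in WT 4 and between 229.9 and 238.1 CPM in the other WT libraries. Gpr15 was at 1.90 CPM in Gsdmd-/- 1 and between 2.22 and 2.26 CPM in the other Gsdmd-/- libraries. Myo1f was at 886.1 CPM in Gsdmd-/- 4 and between 800.3 and 814.7 CPM in the others.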

How the results depend on the processing

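Of 196 alternative values for 18 results, 161 stayed on the same side of the threshold or within the limits set for a change, 35 moved and 0 reversed a called value. Without WT 2 and WT 3 the log2 fold change of Ahr was -0.97 and that of Cyp1b1 -0.45, with 161 genes at an adjusted p under 0.05, 10 listed genes at the study cutoff (13.7% against 6.19% of all genes) and 1 listed gene at the adjusted p (1.37% against 1.21%). Without a filter, 109 genes were called at the adjusted p (0.43% of all genes) and 1204 at the study cutoff. There were 4 listed genes at the study cutoff (4.55% of 88 against 4.75% of all genes) and 1 neighbour at the adjusted p. DESeq2 called 292 genes, 2 listed genes and 3 neighbours at the adjusted p. Upper-quartile scaling left 1 listed gene at the study cutoff (1.41% against 4.76% of all genes), and raising the minimum log2 fold change to 1 left 199 genes. By Spearman's rho 1 and by deviations 0 of the 5 genes most like Ahrr were shared.

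With 1 library left out, genes called at the adjusted p ran from 14 (without WT 3) to 84 (without WT 4), and those at the study cutoff from 469 to 1022 (the same libraries). Listed genes at the study cutoff ran from 1 (without WT 4) to 6 (without WT 1), and at the adjusted p from 0 to 0. Neighbours ran from 0 to 1 at the adjusted p and from 1 to 4 at the study cutoff. In the same fits the share of all genes ran from 0.106% to 0.64% at the adjusted p and from 3.59% to 7.79% at the study cutoff. The log2 fold change ran from -1.21 to -1.08 for Ahrr, from -0.75 to -0.46 for Ahr and from -1.55 to -1.06 for Cyp1b1. The cause of these changes was not tested.

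The replicate block left 25 genes at the adjusted p and gave 4 listed genes at the study cutoff (5.63% against 4.40% of all genes). The labels number the libraries of each genotype without saying that a number is shared. Correlations of deviations between libraries of the same number were 0.0268, 0.182, 0.0412 and -0.201. So few values cannot decide whether the numbers pair the samples.

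In the listed genes without a count, a change was not detectable at this depth. Whether they were expressed below detection or not at all was not tested. The sums of Cyp1a1, 48 counts in WT and 12 in Gsdmd-/- BMDMs, rest on WT 2 and WT 3, which hold 43 of the 48.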
